A study of Mus musculus with 9 samples.

Results

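The 39 genes described here encode proteins that copy DNA or divide the cell. They were taken by name from a list of DNA replication and mitosis genes and were divided by textbook role into 18 S-phase genes and 21 mitotic genes, out of 27179 genes in the deposited table. All 39 were found in the table and all 39 were kept by the filter on low counts. Expression was measured by RNA sequencing in 9 libraries from 3 luminal epithelial populations of the adult mouse mammary gland, each with 3 libraries. All populations were lineage-negative cells sorted by flow cytometry and carried a PR-cre allele with a YFP reporter, so YFP marks cells in which the PR-cre driver has been active at some time, and not the level of any gene at the time of sorting. ML cells were CD14-negative and YFP-positive, HR-positive LP cells were CD14-positive and YFP-positive, and HR-negative LP cells were CD14-positive and YFP-negative. HR, LP and ML are kept as the labels abbreviate them. The design text of the series calls the ML cells YFP-negative, whereas the label of every ML library calls them YFP-positive, and the library labels were followed. Neither strain nor exact age is stated in the sources used here, and nothing says that replicates came from separate animals, so p-values measure the spread between these libraries, which may be technical.

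Before DNA is copied, Cdc6 and Cdt1 help to load a ring-shaped helicase, built from the Mcm2 to Mcm7 proteins in equal numbers, onto replication origins. In S phase the clamp protein Pcna holds the polymerases on DNA while ribonucleotide reductase, thymidylate synthase and thymidine kinase supply nucleotides, and cyclin E and E2F factors drive entry into this phase. Mitotic genes such as those for cyclin B, Cdk1, the Aurora kinases and the spindle motors are switched on later, largely under the control of the DREAM and MuvB complexes, B-Myb and Foxm1. In bulk libraries fewer cycling cells and less RNA per cell cannot be told apart.

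The promoters of both classes are known to carry different short motifs, and the sequences below are those of Aurka, Top2a, Mki67, Mcm6 and Pcna. Not each of them shows the motif of its class. Each is the stretch of 150 bases before the transcription start in the RefSeq promoter table for GRCm38.p6, read 5′ to 3′ on the strand of the gene. Capitals mark letters of the E2F motif (TTTCCCGC, TTTCGCGC, TTTGCCGC or TTTGGCGC), of the cell cycle homology region, abbreviated CHR (TTTGAA or TTCGAA), or of the CCAAT box, on either strand, so that ATTGG is CCAAT read on the other strand. For Aurka, Mki67 and Top2a the annotated gene begins further upstream than the start used in that table.
Aurka, chr2:172370571-172370720, minus strand: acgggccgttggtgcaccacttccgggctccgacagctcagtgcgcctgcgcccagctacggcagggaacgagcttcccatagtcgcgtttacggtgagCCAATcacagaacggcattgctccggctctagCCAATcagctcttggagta
Top2a, chr11:99024190-99024339, minus strand: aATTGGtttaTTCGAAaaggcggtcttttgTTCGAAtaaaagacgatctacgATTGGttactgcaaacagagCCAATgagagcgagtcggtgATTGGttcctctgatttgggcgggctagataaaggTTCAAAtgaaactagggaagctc
Mki67, chr7:135716380-135716529, minus strand: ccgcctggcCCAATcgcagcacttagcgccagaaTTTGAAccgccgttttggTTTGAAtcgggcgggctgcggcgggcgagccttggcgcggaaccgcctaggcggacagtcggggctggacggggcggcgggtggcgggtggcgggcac
Mcm6, chr1:128359706-128359855, minus strand: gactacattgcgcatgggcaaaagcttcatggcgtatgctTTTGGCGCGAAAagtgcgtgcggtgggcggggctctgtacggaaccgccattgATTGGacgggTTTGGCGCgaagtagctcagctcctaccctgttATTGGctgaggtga
Pcna, chr2:132253181-132253330, minus strand: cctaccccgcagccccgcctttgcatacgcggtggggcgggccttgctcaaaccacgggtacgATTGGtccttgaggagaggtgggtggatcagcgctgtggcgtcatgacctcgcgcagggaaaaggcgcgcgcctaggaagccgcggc

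A promoter window of 250 bases before to 50 bases after the start was matched for 31 of the 39 members, 15 of them S-phase and 16 mitotic. The E2F letters were present in 6 of the 15 S-phase windows (40%) and in 1 of the 16 mitotic windows (6.25%), where 2.6% of all 27025 genes with a window held them. In the Mcm6 sequence the first capital run holds a pair of overlapping E2F matches. The CHR letters were present in 13 of the 16 mitotic windows (81.2%) and in 3 of the 15 S-phase windows (20%), against 21.7% of all genes. CCAAT was present in 15 of the 16 mitotic windows (93.8%) and in 9 of the 15 S-phase windows (60%), against 41.1% of all genes. The Pcna window held CCAAT alone among these motifs. The CHR match of Aurka lay 32 bases after the start, outside the printed stretch. A match describes the letters of a window and is not evidence that a factor binds there.

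Library depth ran between 27219103 counts in ML replicate 1 and 108119756 counts in HR-negative LP replicate 2. Levels are given as CPM, the usual count per fixed library total, after TMM scaling of the library size, and 3 counts correspond to between 0.0277 and 0.110 CPM. Each comparison was made with edgeR's quasi-likelihood test over 15910 genes, and a gene was called at a Benjamini-Hochberg adjusted p below 0.05. In ML against HR-negative LP, 23.3% of all tested genes were called higher and 21.3% lower. In HR-positive against HR-negative LP, 17.2% were called higher and 12.8% lower, or 2731 and 2033 genes, where scaling by library totals alone gave 3182 and 1535. In ML against HR-positive LP, 0.0943% were called higher and 6.7% lower. The 15 genes behind the first of these shares became 63 without HR-negative LP replicate 1, 71 with the replicate block, 88 with DESeq2 and 216 with only the groups compared.

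Few of the cell cycle genes separated the populations, and those that did moved in opposite directions within the same process. In ML against HR-negative LP, 4 of the 39 were higher (Aurka, Ccnb1, Mcm2 and Mcm6) and 3 were lower (Pcna, Cdt1 and Rrm1), which is 10.3% and 7.69% of them. In HR-positive against HR-negative LP, 1 was higher (Aurka) and 4 were lower (Pcna, Cdt1, Rrm1 and Ccnb2), or 2.56% and 10.3%. In ML against HR-positive LP, 0 were higher and 2 were lower (Pcna and Cdt1), or 5.13%. Each of the shares against HR-negative LP was below that of all tested genes, and the share lower in ML than in HR-positive LP was near it. Across the 3 comparisons 8 members were called at least once, 5 of them S-phase and 3 mitotic, and 31 were called in none. The comparisons share libraries and are not independent of each other.

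**Figure D1:**
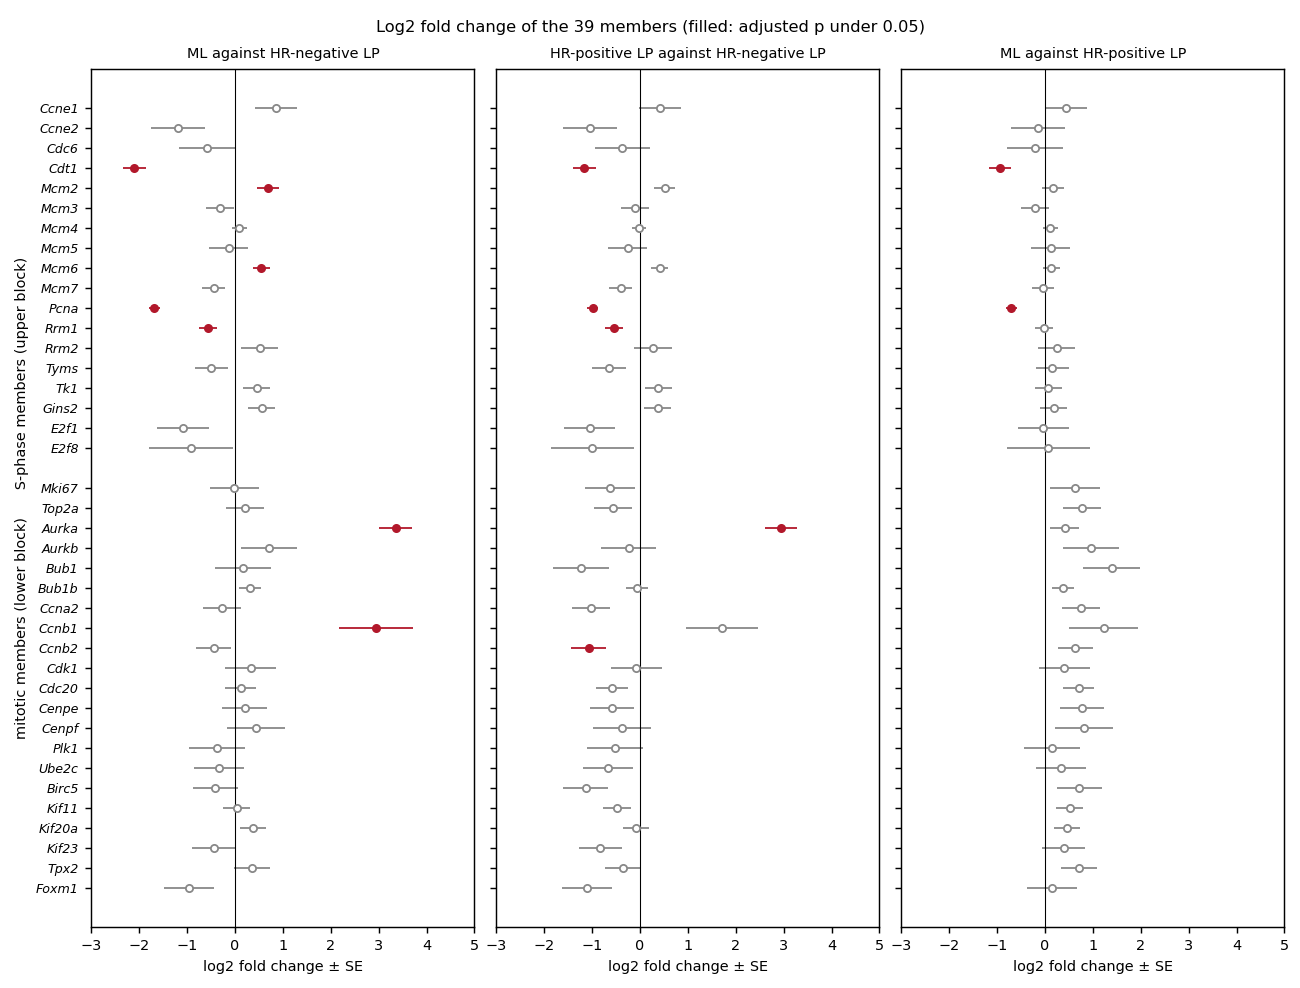
Log2 fold change ± SE of each of the 39 members (rows) in the 3 comparisons (panels), from edgeR on 3 libraries per population, with filled symbols for an adjusted p under 0.05. Pcna and Cdt1 lie left of 0 in all panels, Aurka lies far to the right in both comparisons with HR-negative LP, and all 21 mitotic members lie right of 0 in ML against HR-positive LP with 0 of them called.

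The 18 S-phase genes had a median log2 fold change of -0.37 in ML against HR-negative LP, -0.31 in HR-positive against HR-negative LP and 0.07 in ML against HR-positive LP. Over all tested genes these medians were 0.03, 0.01 and 0.01. Their summed level was 438, 307 and 373 CPM in ML libraries, 442, 336 and 379.9 CPM in HR-positive LP libraries and 478, 440.2 and 472 CPM in HR-negative LP libraries. The ML and HR-positive LP sums overlapped over most of their range, and the highest HR-positive LP library stood just above the lowest HR-negative LP library. The mean sums were 373 CPM in ML, 386 in HR-positive LP and 463 CPM in HR-negative LP. Pcna alone held 40.2, 65.4 and 129.5 CPM of them in the same order, so the higher HR-negative LP sum rested largely on this gene. The medians and sums also hide a split, since Pcna, Cdt1 and Rrm1 ran against Mcm2 and Mcm6.

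Pcna (gene ID 18538, chr2:132249286-132253180, mm10), the sliding clamp of the replication fork, differed between all 3 populations. It stood at 37.5, 40.5 and 42.5 CPM in ML libraries, 64.0, 63.6 and 68.5 CPM in HR-positive LP libraries and 132, 122 and 134 CPM in HR-negative LP libraries. The ML libraries were lowest, the HR-negative LP libraries highest, and no library of one population reached the range of another. The level fell by 1.69 ± 0.12 on the log2 scale in ML against HR-negative LP (edgeR adjusted p = 8.6e-07). It fell by 0.99 ± 0.12 in HR-positive against HR-negative LP (edgeR adjusted p = 0.000117) and by 0.70 ± 0.11 in ML against HR-positive LP (edgeR adjusted p = 0.00223). These errors are the standard error (SE) of the fit. Pcna shares 19.1% of its 50-base windows with the pseudogene Pcna-ps2, and how the authors treated such reads is not given in the sources used here.

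Cdt1 (gene ID 67177, chr8:122568015-122573130, mm10), which loads the helicase and is destroyed once replication begins, had the same order as Pcna. Its level was 9.68, 7.10 and 8.03 CPM in ML libraries, 14.9, 11.6 and 20.96 CPM in HR-positive LP libraries and 32.1, 31.7 and 42.6 CPM in HR-negative LP libraries. Again the 3 populations did not overlap, with ML lowest and HR-negative LP highest. Cdt1 fell by 2.10 ± 0.24 in ML against HR-negative LP (edgeR adjusted p = 3.87e-05) and by 1.16 ± 0.23 in HR-positive against HR-negative LP (edgeR adjusted p = 0.00378). Between ML and HR-positive LP it fell by 0.94 ± 0.24 (edgeR adjusted p = 0.0357). This last call was lost without ML replicate 1, 2 or 3 (edgeR adjusted p = 0.0514, 0.185 and 0.126), without HR-positive LP replicate 1 or 3 (0.0802 and 0.177) and without HR-negative LP replicate 2 (0.0502). Cdc6, the other loading factor among the members, was scarce at 1.95 ± 0.432 CPM in ML, 2.25 ± 1.15 in HR-positive LP and 2.94 ± 1.86 CPM in HR-negative LP (SD, n = 3 each), and it was not called in any comparison.

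The helicase genes Mcm2 and Mcm6 had another order than their loading factor. Mcm2 (gene ID 17216, chr6:88883474-88898780, mm10) stood at 33.8, 21.7 and 26.3 CPM in ML libraries, 31.6, 19.0 and 22.1 CPM in HR-positive LP libraries and 17.9, 15.2 and 17.8 CPM in HR-negative LP libraries. Mcm6 (gene ID 17219, chr1:128331575-128359705, mm10) stood at 158, 107.7 and 125 CPM in ML libraries, 139.7, 109.8 and 106 CPM in HR-positive LP libraries and 105, 79.5 and 82.9 CPM in HR-negative LP libraries. For both genes every HR-negative LP library lay below every library of the other populations, which overlapped each other. Mcm2 rose by 0.69 ± 0.22 on the log2 scale in ML against HR-negative LP (edgeR adjusted p = 0.0281), and Mcm6 rose by 0.55 ± 0.18 (edgeR adjusted p = 0.0277). In HR-positive against HR-negative LP neither passed, at 0.52 ± 0.22 for Mcm2 and 0.41 ± 0.18 for Mcm6 (edgeR adjusted p = 0.106 for each), whereas with the replicate block both did, at 0.48 and 0.41 (edgeR adjusted p = 0.0352 and 0.0116). Both calls in ML were lost without ML replicate 1, without ML replicate 3 and without HR-negative LP replicate 2, with edgeR adjusted p between 0.0539 and 0.125 for the pair, and without HR-negative LP replicate 1 Mcm6 was also called in HR-positive LP (log2 fold change 0.55, edgeR adjusted p = 0.0397). The Mcm6 call in ML was also lost without HR-negative LP replicate 3 (edgeR adjusted p = 0.0697).

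The other helicase genes, Mcm3, Mcm4, Mcm5 and Mcm7, were not called in any comparison. Mcm4, for example, stood at 40.2 ± 6.16 CPM in ML, 37.2 ± 3.99 in HR-positive LP and 37.8 ± 1.07 CPM in HR-negative LP. Mcm7 is uncertain, because 23.3% of its windows match other genes, mainly the near-copy Gm5487 and the antisense gene Ap4m1. Per kilobase of the deposited gene length the RNA levels of the subunit genes were far from equal. Protein amounts were not measured, and the deposited length need not be that of the transcripts expressed here. Mcm6 was the highest, at 44.9 CPM per kilobase in ML, 40.9 in HR-positive LP and 30.7 in HR-negative LP. Mcm5 was the lowest at 3.75, 3.42 and 4.10 CPM per kilobase in the same order, so the gap between them was 11.98-fold, 11.94-fold and 7.48-fold. On this scale Pcna reached 31.9 CPM per kilobase in ML, 51.9 in HR-positive LP and 103 in HR-negative LP, and ranked above Mcm6 in both LP populations but below it in ML.

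**Figure D2:**
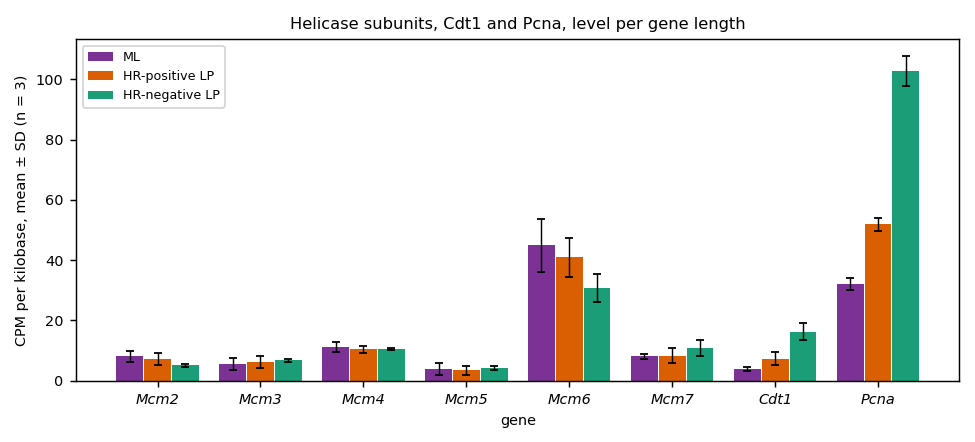
Level per gene length (CPM per kilobase, mean ± SD, n = 3) of the 6 helicase subunit genes, Cdt1 and Pcna (horizontal axis) in ML, HR-positive LP and HR-negative LP (bars, left to right). Mcm6 stands at 44.9, 40.9 and 30.7 CPM per kilobase in that order, whereas Pcna stands at 31.9, 51.9 and 103.

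Among the genes of nucleotide supply, Rrm1 alone was called. Rrm1 (gene ID 20133, chr7:102441695-102469771, mm10), the large subunit of ribonucleotide reductase, stood at 40.9, 30.6 and 33.1 CPM in ML libraries, 41.2, 30.2 and 34.7 CPM in HR-positive LP libraries and 50.2, 61.7 and 42.1 CPM in HR-negative LP libraries. Each HR-negative LP library lay above the others, although the lowest did so by less than 1 CPM. Rrm1 fell by 0.56 ± 0.19 in ML against HR-negative LP (edgeR adjusted p = 0.03) and by 0.54 ± 0.19 in HR-positive against HR-negative LP (edgeR adjusted p = 0.0486). The call in ML was kept in 13 of 17 alternatives. It was lost without ML replicate 2 or 3, without HR-negative LP replicate 2 and with library totals alone (edgeR adjusted p = 0.109, 0.0938, 0.115 and 0.139). The call in HR-positive LP was lost in 10 of 17 alternatives, including each ML replicate, HR-positive LP replicates 2 and 3 and HR-negative LP replicates 1 and 2 left out, with a log2 fold change between -0.66 and -0.38 over all 17.

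Rrm2, the regulated small subunit of the same enzyme, did not pass in any comparison, at 6.49 ± 2.75 CPM in ML, 5.45 ± 2.24 in HR-positive LP and 4.54 ± 0.553 CPM in HR-negative LP. Tyms and Tk1, which make thymidine nucleotides by synthesis and by salvage, were also not called. Gins2, a subunit of the active helicase, was not called and is uncertain, because 65.4% of its windows are also covered by the antisense gene Gse1 and the library kit does not mark the strand. The factors of S-phase entry were scarce. E2f1 averaged 2.62 ± 1.47 CPM in ML, 2.67 ± 1.29 in HR-positive LP and 5.57 ± 2.39 CPM in HR-negative LP. The cyclin E genes Ccne1 and Ccne2 and the repressor gene E2f8 stayed below 7 CPM in every library, and none of these genes was called with all libraries and no replicate block. With the replicate block E2f1 was lower against HR-negative LP in ML (log2 fold change -1.13, edgeR adjusted p = 0.0214) and in HR-positive LP (-1.07, edgeR adjusted p = 0.0346), where the labels do not pair the libraries. Without HR-negative LP replicate 1, E2f8 was lower against the remaining HR-negative LP libraries in ML (edgeR adjusted p = 0.0411) and in HR-positive LP (0.0442), and Ccne2 was lower in ML (0.0431). Ccne1 was higher in ML once HR-negative LP replicate 3 was removed (edgeR adjusted p = 0.0225).

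The 21 mitotic genes had a median log2 fold change of 0.16 in ML against HR-negative LP, -0.56 in HR-positive against HR-negative LP and 0.63 in ML against HR-positive LP, beside 0.03, 0.01 and 0.01 over all tested genes. Aurka had the largest fold change of them against HR-negative LP. Aurka (gene ID 20878, chr2:172356190-172370886, mm10) encodes Aurora kinase A, which works at centrosomes and spindle poles. It stood at 35.5, 38.5 and 35.3 CPM in ML libraries, 27.7, 29.0 and 25.4 CPM in HR-positive LP libraries and 1.61, 3.84 and 5.37 CPM in HR-negative LP libraries. The YFP-positive populations were high in every library, the HR-negative LP libraries were low, and the 3 populations did not overlap. Aurka rose by 3.35 ± 0.34 on the log2 scale in ML against HR-negative LP (edgeR adjusted p = 1.43e-05) and by 2.94 ± 0.34 in HR-positive against HR-negative LP (edgeR adjusted p = 0.0001). Both calls were kept in all 17 alternatives. In ML against HR-positive LP the log2 fold change was 0.41 ± 0.31 and did not pass (edgeR adjusted p = 0.732), although a fit on these libraries alone, without HR-negative LP, gave 0.42 with an adjusted p of 0.0366.

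The members whose products act with or beside Aurora kinase A were not called. Tpx2, which activates Aurora kinase A on the spindle, stood at 5.62 ± 1.36 CPM in ML, 3.43 ± 1.20 in HR-positive LP and 4.39 ± 1.28 CPM in HR-negative LP, and Aurkb, the Aurora kinase of the centromere, at 2.89 ± 1.40, 1.48 ± 0.805 and 1.76 ± 0.769 CPM in the same order. Neither passed in any comparison with all libraries, and nor did the mitotic kinase genes Plk1, Bub1 and Bub1b. Aurka made up 16.3% to 23.6% of the summed mitotic level in ML libraries, 17.4% to 22.7% in HR-positive LP libraries and 2.07% to 2.48% in HR-negative LP libraries. Per kilobase it ranked first among the mitotic members in ML (19.1 CPM per kilobase) and HR-positive LP (14.4), whereas Top2a ranked first in HR-negative LP (5.14). Aurka overlaps the gene Cstf1, with which it shares none of its 50-base windows, and Cstf1 itself stood at 25.9 ± 3.41 CPM in ML, 22.4 ± 1.45 in HR-positive LP and 13.4 ± 2.22 CPM in HR-negative LP.

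The B-type cyclin genes Ccnb1 and Ccnb2 were each called in 1 comparison, and not in the same one. Ccnb1 (gene ID 268697, chr13:100778739-100786486, mm10), the cyclin B that activates Cdk1 at entry into mitosis, stood at 1.71, 1.57 and 1.67 CPM in ML libraries, 0.238, 1.14 and 0.745 CPM in HR-positive LP libraries and 0.222, 0.174 and 0.250 CPM in HR-negative LP libraries. The ML libraries lay above the rest, and HR-positive LP replicate 1 lay within the HR-negative LP range. Ccnb1 rose by 2.94 ± 0.78 in ML against HR-negative LP (edgeR adjusted p = 0.01), and its log2 fold change in HR-positive against HR-negative LP was 1.71 ± 0.75 and did not pass (edgeR adjusted p = 0.111). These levels rest on 51, 74 and 71 counts in ML and on 11, 17 and 7 counts in HR-negative LP. They are uncertain, because 23.4% of the windows of Ccnb1 match copies such as Ccnb1-ps, which itself stood at 1.05 ± 0.781 CPM in ML, 0.434 ± 0.101 in HR-positive LP and 0.307 ± 0.345 CPM in HR-negative LP.

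Ccnb2 (gene ID 12442, chr9:70407689-70421554, mm10), the second B-type cyclin gene, stood at 4.45, 4.64 and 7.02 CPM in ML libraries, 3.70, 2.38 and 4.33 CPM in HR-positive LP libraries and 4.34, 8.18 and 9.44 CPM in HR-negative LP libraries. The lowest HR-negative LP library, replicate 1, was level with the highest HR-positive LP library. In ML against HR-negative LP the log2 fold change of Ccnb2 was -0.44 ± 0.37 and did not pass (edgeR adjusted p = 0.359). Ccnb2 fell by 1.07 ± 0.37 in HR-positive against HR-negative LP (edgeR adjusted p = 0.0485), a call that was lost in 11 of 17 alternatives, among them every ML and HR-positive LP replicate and HR-negative LP replicates 2 and 3 left out (edgeR adjusted p between 0.0571 and 0.172). Ccna2, the cyclin of S phase and early mitosis, and Cdk1, the kinase that these cyclins activate, were not called by edgeR in any comparison with all libraries, although DESeq2 called Ccna2 lower in HR-positive against HR-negative LP (log2 fold change -1.08, adjusted p = 0.034).

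**Figure D3:**
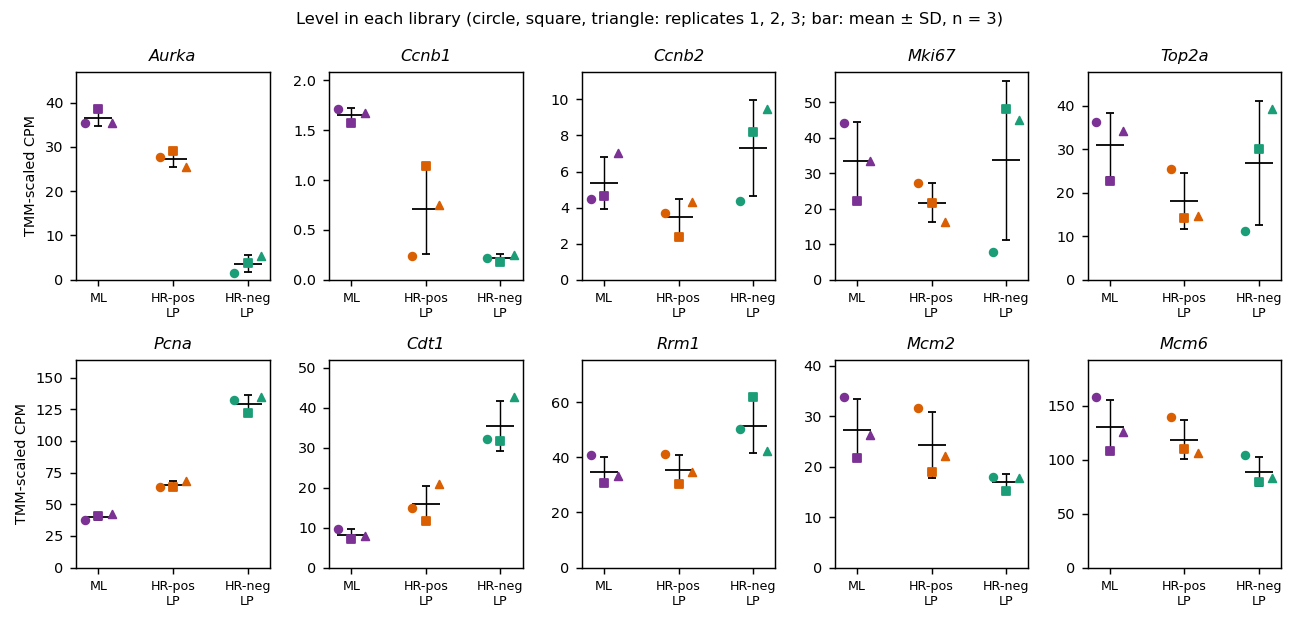
TMM-scaled CPM (vertical axes, each starting at 0) of 10 members in the libraries of ML, HR-positive LP and HR-negative LP, with replicates 1, 2 and 3 as circle, square and triangle and bars for the mean ± SD (n = 3). Aurka is at 35.3 to 38.5 CPM in ML and at 1.61 to 5.37 CPM in HR-negative LP, Pcna and Cdt1 show the reverse order, and HR-negative LP replicate 1 stands below its group for Mki67 and Top2a.

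The proliferation markers in common use, Mki67 and Top2a, were not called in any comparison with all libraries. Mki67 (gene ID 17345, chr7:135689784-135716450, mm10), whose protein Ki-67 coats mitotic chromosomes, stood at 44.2, 22.2 and 33.5 CPM in ML libraries, 27.2, 21.5 and 16.2 CPM in HR-positive LP libraries and 7.73, 47.9 and 45.0 CPM in HR-negative LP libraries. Top2a (gene ID 21973, chr11:98992947-99024199, mm10), the topoisomerase that untangles sister chromatids, stood at 36.2, 22.7 and 34.3 CPM in ML libraries, 25.5, 14.2 and 14.6 CPM in HR-positive LP libraries and 11.2, 30.0 and 39.2 CPM in HR-negative LP libraries. For both genes HR-negative LP replicate 1 was the lowest of all 9 libraries, while both other HR-negative LP libraries lay above every HR-positive LP library. The log2 fold change of Mki67 was -0.01 ± 0.52 in ML against HR-negative LP (edgeR adjusted p = 0.988), -0.63 ± 0.52 in HR-positive against HR-negative LP (0.398) and 0.62 ± 0.52 in ML against HR-positive LP (0.785). For Top2a it was 0.21 ± 0.40 (edgeR adjusted p = 0.701), -0.56 ± 0.40 (0.323) and 0.78 ± 0.40 (0.475) in the same comparisons.

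This library stood low across the mitotic genes, while its S-phase levels lay among those of its group. HR-negative LP replicate 1 was the lowest of its group for 18 of the 21 mitotic members (85.7%), for 6 of the 18 S-phase members (33.3%) and for 38.0% of all tested genes. The summed mitotic level was 218, 163 and 217 CPM in ML libraries, 159, 129 and 112 CPM in HR-positive LP libraries and 77.1, 185 and 217 CPM in HR-negative LP libraries. The HR-negative LP range thus enclosed the HR-positive LP range and overlapped the ML range. Without HR-negative LP replicate 1, the comparison of HR-positive against HR-negative LP called 19.5% of all tested genes as higher and 13.9% as lower, and 8 mitotic members were called instead of 2. Of these, Aurka was higher, and Mki67, Top2a, Bub1, Ccna2, Ccnb2, Birc5 and Foxm1 were lower, with log2 fold changes of -1.10 for Mki67 (edgeR adjusted p = 0.0132) and -1.56 for Foxm1 (edgeR adjusted p = 0.00556). The library left out was the lowest of its group for each of these genes, so its removal raised their HR-negative LP level by construction. The lower calls rest on the 2 remaining HR-negative LP libraries and are not separate evidence of a difference. With any other library left out, 1 mitotic member was called in that comparison, Aurka.

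**Figure D4:**
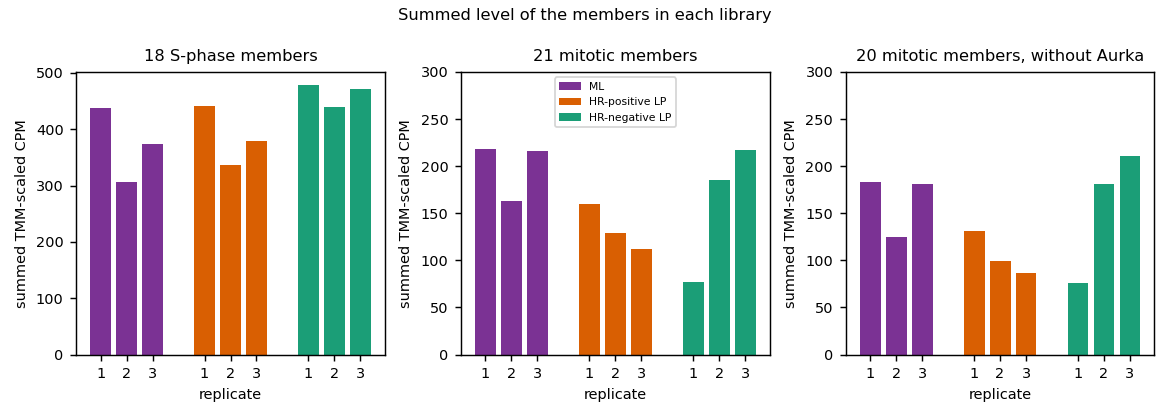
Summed TMM-scaled CPM (vertical axes) of the 18 S-phase members, the 21 mitotic members and the mitotic members without Aurka in each library (bars, numbered by replicate, coloured by population). HR-negative LP replicate 1 has the lowest mitotic sum at 77.1 CPM, and its S-phase sum of 478 CPM is the highest of all libraries.

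In ML against HR-positive LP all 21 mitotic members had a positive log2 fold change, between 0.15 for Foxm1 and 1.39 for Bub1, but 0 were called by edgeR, DESeq2 or limma voom. A single member, Bub1, which encodes a spindle checkpoint kinase, had an unadjusted edgeR p under 0.05, and its adjusted p was 0.323. Bub1 stood at 3.82, 1.77 and 3.91 CPM in ML libraries and 1.74, 1.04 and 0.821 CPM in HR-positive LP libraries, so that each ML library lay above the HR-positive LP libraries, by a small margin for ML replicate 2. Over all tested genes 8172 of 15910 were positive in this comparison. The mitotic genes vary together from library to library and are not independent measurements. The summed level without Aurka was 162.9 ± 33.2 CPM in ML, 106 ± 23.2 in HR-positive LP and 156 ± 71.3 CPM in HR-negative LP. In the same order, the mitotic sum with Aurka over the S-phase sum was 0.537 ± 0.0408, 0.346 ± 0.0458 and 0.347 ± 0.162. Without Aurka this ratio was 0.436 ± 0.0429, 0.274 ± 0.0401 and 0.339 ± 0.158.

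The other mitotic members were not called by edgeR in any comparison when all libraries were used. They include the spindle motor genes Kif11, Kif20a and Kif23, the kinetochore genes Cenpe and Cenpf, the genes Cdc20 and Ube2c of the anaphase-promoting complex pathway, Birc5 of the chromosomal passenger complex and the transcription factor gene Foxm1. DESeq2 called Birc5 lower in HR-positive against HR-negative LP (log2 fold change -1.19, adjusted p = 0.0458). Foxm1 averaged 3.97 ± 0.921 CPM in ML, 3.58 ± 1.13 in HR-positive LP and 7.75 ± 5.04 CPM in HR-negative LP, where replicate 1 had 2.10 CPM and replicates 2 and 3 had 9.37 and 11.8 CPM. Without that replicate Foxm1 was also lower in ML against HR-negative LP (edgeR adjusted p = 0.00602). Removal of HR-negative LP replicate 3 made Cenpe higher in ML against that population (edgeR adjusted p = 0.0488). Kif20a is uncertain, since 25.2% of its windows are also covered by the antisense gene Cdc23. For the S-phase members, libraries with the same number moved alike in the YFP-positive populations. ML replicate 2 was the lowest of its group for 16 of the 18 and HR-positive LP replicate 2 for 15. ML replicate 1 was the highest for 14 and HR-positive LP replicate 1 for 12. Over all tested genes these shares were 29.4% and 31.3% lowest and 36.2% and 32.8% highest. The mitotic members did not follow this pattern. ML replicate 2 was the lowest for 14 of the 21 and HR-positive LP replicate 2 for 4. HR-positive LP replicate 3 was the lowest for 14, whereas ML replicate 3 was the highest for 12.

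**Figure D5:**
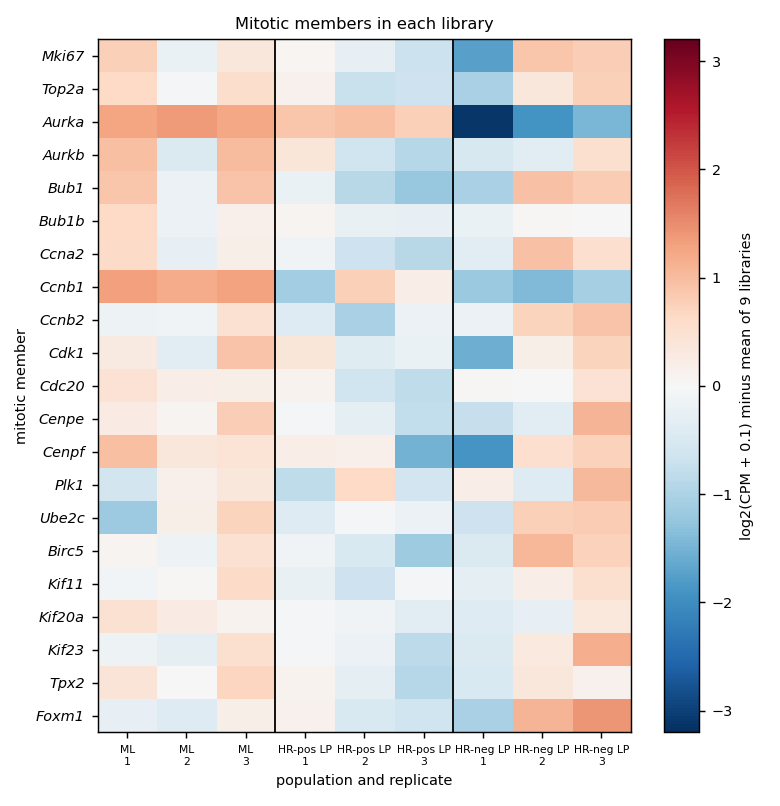
Level of each of the 21 mitotic members (rows) in each of the 9 libraries (columns), as log2(CPM + 0.1) minus the mean of the 9 libraries, with red above and blue below that mean. The Aurka row is red in ML and HR-positive LP and blue in HR-negative LP, and the column of HR-negative LP replicate 1 is blue for most members.

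Further genes of the same pathways were also called in part. Of 48 other replication genes, 0 were higher and 6 lower in ML against HR-negative LP, 0 and 4 in HR-positive against HR-negative LP, and 0 and 0 in ML against HR-positive LP, where 3 had an unadjusted edgeR p under 0.05. Both shares lower lay under those of all tested genes, 21.3% and 12.8%. The median log2 fold changes of these genes were -0.15, -0.21 and 0.04. Fen1 of this list was also called lower in ML against HR-positive LP in 6 of 17 alternatives (edgeR adjusted p = 0.0412 with the replicate block, DESeq2 adjusted p = 0.0166). Fen1, the nuclease that trims Okazaki fragments and binds Pcna, stood at 12.1 ± 0.244 CPM in ML, 18.1 ± 2.01 in HR-positive LP and 37.6 ± 4.54 CPM in HR-negative LP, and fell by 1.64 ± 0.16 in ML (edgeR adjusted p = 9.94e-06) and by 1.06 ± 0.16 in HR-positive LP (edgeR adjusted p = 0.000553) against HR-negative LP. Slbp, which binds histone mRNA, stood at 41.8 ± 2.54, 54.3 ± 5.81 and 100.9 ± 10.7 CPM in the same order and was also lower in both. So were Dtl, part of the ligase that degrades Cdt1, at 4.59 ± 0.844, 7.72 ± 1.03 and 15.9 ± 6.67 CPM, and Pola1, the catalytic subunit of the primase-polymerase, at 8.40 ± 2.22, 13.1 ± 5.501 and 25.9 ± 5.62 CPM. The HR-positive LP call of Dtl was lost in 6 of 17 alternatives, among them each HR-positive LP replicate and HR-negative LP replicates 2 and 3 left out (edgeR adjusted p up to 0.119 where one library was removed). That of Pola1 was lost in 8, among them ML replicates 2 and 3, HR-positive LP replicates 2 and 3 and HR-negative LP replicates 1 and 3 left out (edgeR adjusted p up to 0.124).

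Of 60 other mitosis genes, 7 were higher and 4 lower in ML against HR-negative LP, 4 and 7 in HR-positive against HR-negative LP, and 0 and 0 in ML against HR-positive LP, where again 3 had an unadjusted edgeR p under 0.05. Among all tested genes 23.3% were higher and 21.3% lower in the first of these comparisons and 17.2% and 12.8% in the second, and each share of this list lay below its counterpart. Their median log2 fold changes were 0.05, -0.34 and 0.43. Kif2c, a kinesin that removes tubulin from microtubule ends at kinetochores, stood at 14.9, 14.9 and 13.7 CPM in ML libraries, 11.5, 9.10 and 10.6 CPM in HR-positive LP libraries and 0.565, 0.0512 and 0.680 CPM in HR-negative LP libraries, the last on 28, 5 and 19 counts. As with Aurka, the populations did not overlap and the HR-negative LP libraries were low. Kif2c rose by 5.23 ± 0.64 in ML (edgeR adjusted p = 6.12e-05) and by 4.75 ± 0.63 in HR-positive LP (edgeR adjusted p = 0.000286) against HR-negative LP. Dlgap5, a spindle protein gene known as a substrate of Aurora kinase A, stood at 11.3 ± 4.89 CPM in ML, 8.72 ± 3.26 in HR-positive LP and 2.29 ± 0.963 CPM in HR-negative LP and was higher in both YFP-positive populations.

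Anln, which encodes the actin-binding scaffold anillin of the cleavage furrow, stood at 37.2 ± 3.49 CPM in ML, 23.9 ± 3.01 in HR-positive LP and 14.5 ± 4.54 CPM in HR-negative LP, and was likewise higher in both against HR-negative LP. Ncapd2, a condensin subunit gene, ran the other way at 21.9 ± 3.17, 23.0 ± 4.29 and 38.6 ± 3.72 CPM, as did Cks1b, which encodes a Cdk-binding protein, at 8.76 ± 0.913, 11.5 ± 0.167 and 21.8 ± 8.22 CPM. Both were lower in ML and in HR-positive than in HR-negative LP. Nusap1, a spindle microtubule protein gene, was lower in HR-positive than in HR-negative LP, at 1.91 ± 0.632 against 4.60 ± 1.07 CPM, and was not called in ML, at 3.74 ± 0.824 CPM. Ckap2l and Kif4, which like Anln and Nusap1 had the smallest p of this list in ML against HR-positive LP, were not called in any comparison.

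Of 24 genes of E2F, Rb family and related control, 2 were higher and 6 lower in ML against HR-negative LP, 1 and 5 in HR-positive against HR-negative LP, and 0 and 3 in ML against HR-positive LP. Over all tested genes 23.3% and 21.3%, 17.2% and 12.8%, and 0.0943% and 6.7% were called in the same order, so 6 of 24 lower was near the share of all genes, while 5 of 24 and 3 of 24 lower lay above it. Their median log2 fold changes were -0.16, -0.16 and 0.01. Rb1, whose product holds E2F factors inactive until S-phase entry, stood at 67.9, 52.7 and 61.1 CPM in ML libraries, 248, 215 and 214 CPM in HR-positive LP libraries and 553, 710.1 and 609 CPM in HR-negative LP libraries. The populations did not overlap, with ML lowest. Rb1 fell by 3.37 ± 0.16 in ML (edgeR adjusted p = 8.32e-08) and by 1.47 ± 0.15 in HR-positive LP (edgeR adjusted p = 4.79e-05) against HR-negative LP, and by 1.90 ± 0.15 in ML against HR-positive LP (edgeR adjusted p = 9.63e-06).

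Wee1, the kinase that restrains Cdk1, had the same order at 66.0 ± 13.2 CPM in ML, 160.5 ± 52.0 in HR-positive LP and 309 ± 60.5 CPM in HR-negative LP and was called in each comparison, although in HR-positive against HR-negative LP not without HR-positive LP replicate 1 or 2 (edgeR adjusted p = 0.0527 and 0.0586). Cdk6, a kinase that phosphorylates Rb1, stood at 2.54 ± 0.689 CPM in ML, 11.05 ± 2.74 in HR-positive LP and 21.1 ± 10.1 CPM in HR-negative LP. It was lower in ML than in either LP population, while its change in HR-positive against HR-negative LP did not pass (edgeR adjusted p = 0.0832). The Cdk6 call in ML against HR-positive LP was lost with limma voom (log2 fold change -2.21, adjusted p = 0.0981). Fzr1, an activator of the anaphase-promoting complex, was higher in ML (52.6 ± 6.12 CPM) and in HR-positive LP (47.1 ± 0.689 CPM) than in HR-negative LP (31.4 ± 5.13 CPM). Tfdp1, the DNA-binding partner of E2F factors, was higher in ML (43.6 ± 1.53 CPM) than in HR-negative LP (26.6 ± 5.60 CPM). E2f5, a repressive E2F factor gene, was lower in ML (19.6 ± 1.26 CPM) and in HR-positive LP (22.3 ± 2.28 CPM) than in HR-negative LP (31.9 ± 3.35 CPM).

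Markers of other cells moved along the same populations, and their part in these results was not tested. The summed level of 10 pan-luminal genes was alike, between 14659 and 19542 CPM in every library, with 0 of them at 0 counts. The summed level of 14 basal genes was 51.5 to 70.0 CPM in ML, 79.9 to 92.4 CPM in HR-positive LP and 164 to 195 CPM in HR-negative LP, and 1 of the 14 was higher and 6 lower in ML against HR-negative LP. That of 10 immune genes was 3.68 to 5.56, 6.52 to 8.29 and 14.3 to 19.8 CPM in the same order, with Cd3e and Nkg7 at 0 counts in 8 of the 9 libraries each. Of the 6 immune genes tested, 1 was higher (Itgam) and 2 lower (Cd68 and Cd74) in both comparisons with HR-negative LP. Itgam had 0 counts in every HR-negative LP library. The 4 erythrocyte genes found summed to 4.62 to 12.4, 3.84 to 11.7 and 0.343 to 1.57 CPM, with 2 higher and 0 lower in both comparisons. The summed level of 10 endothelial genes was 73.1 to 90.1, 49.8 to 68.3 and 8.39 to 15.9 CPM, although 2 of the 10 were called higher and 0 lower in ML against HR-negative LP and 5 had a negative log2 fold change there. That of 10 fibroblast genes was 208 to 365, 172 to 309.5 and 82.7 to 149 CPM, against the direction of most members, since 8 of the 10 had a negative log2 fold change in ML against HR-negative LP, with 2 called higher and 4 lower. Genes that rise when tissue is dissociated (15 genes) held 1.96% to 2.86% of counts in ML, 3.21% to 4.04% in HR-positive LP and 3.62% to 6.17% in HR-negative LP, with HR-negative LP replicate 1 the highest. The population markers followed the labels. The 8 hormone-sensing genes summed to 8618 to 11303 CPM in ML, 6006 to 7146 CPM in HR-positive LP and 203 to 482 CPM in HR-negative LP. In the same order, 8 alveolar progenitor genes summed to 156 to 305, 4797 to 5439 and 14886 to 17742 CPM. Part of this was fixed in advance, since cells were sorted by CD14 and PR-cre YFP and the lists hold Cd14 and Pgr. Tnfsf11 of the hormone-sensing list was not tested.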

How the data were processed

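The deposited values are raw counts per gene for 9 libraries, with a gene length column, in a table whose values did not differ from the files of the single samples (0 cells differing). RNA was extracted with a miRNeasy kit and sequenced from TruSeq v2 libraries, which do not mark the strand, per the labels' protocols. The submitters' processing notes name featureCounts and mm10. The aligner, the annotation and the rule for reads that match more than one gene are not given in the sources used here. Gene IDs were matched to RefSeq symbols for 25275 of 27179 genes (93.0%).

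Genes were filtered with filterByExpr, which kept 15910, and scaled by TMM. Populations were compared with edgeR 4.0.16 (glmQLFit and glmQLFTest) on all 9 libraries with no covariate, with Benjamini-Hochberg adjustment over the tested genes and a threshold of 0.05. The SE was taken from the F statistic. The alternatives used DESeq2 1.42.0 and limma 3.58.1 under R 4.3.3, figures were drawn with matplotlib 3.10.9 in Python 3.11.15, and the procedure was tested on simulated data. Shared windows are the 50-base stretches of a gene's GENCODE M21 exons that occur in another gene. Depth was 27219103 to 108119756 counts, so counting error was small except for genes at a few counts.

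The labels give no batch. Same-numbered ML and HR-positive LP libraries deviated together (correlations across genes 0.183, 0.121 and 0.189), and the main fit did not take this into account. An alternative fit with the replicate number as a block left the counts of called members in that comparison as they were. Over all tested genes it moved the calls higher in that comparison from 15 to 71. In HR-positive against HR-negative LP it moved the S-phase count from 3 to 6. Named genes are all members, with full values for each one called in any comparison and for Mki67 and Top2a, and up to 4 genes with the smallest p from each pathway list. The members and lists were chosen with earlier results of these data known.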

Additional observations from a re-analysis of the deposited data

How the results depend on the processing

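Each comparison was refitted under 17 alternatives. Over the 39 members and 3 comparisons these gave 1989 values, of which 1928 stayed on the same side of the threshold, 41 lost their call, 20 gained one and 0 called values turned sign. For other named genes 26 of 612 values lost a call and 8 gained one. The S-phase count in HR-positive against HR-negative LP was 3, and 6 with the replicate block (2 higher, 4 lower), with 2 to 4 when one library was left out. The labels link those libraries only by number and do not say whether they share an animal or day. Their correlations were 0.133, 0.0389 and 0.147, and each correlated best with its own number. The mitotic count in that comparison was 2, and 4 with DESeq2, 1 with library totals alone, 1 with no filter on low counts and 1 with only the groups compared, with 1 to 8 when one library was left out. In ML against HR-positive LP the S-phase count was 2, and 1 with limma voom, with RLE size factors and with library totals alone, with 1 to 2 when one library was left out, Cdt1 being the call lost. The mitotic count was 0, and 1 (Aurka) with only the groups compared. In ML against HR-negative LP the S-phase count was 5, with 2 to 7 when one library was left out, namely 3 without ML replicate 1 and 2 without ML replicate 3 or HR-negative LP replicate 2, and 6 with the replicate block. The replicate block changed no mitotic count. Library totals alone moved the median of all genes to 0.19 in ML and 0.12 in HR-positive against HR-negative LP. Against HR-negative LP, the HR-positive LP calls of Cks1b were lost without any one of the HR-positive LP replicates (edgeR adjusted p 0.0536 to 0.0563), that of Ncapd2 without replicate 2 (0.0501), and that of E2f5 without HR-positive LP replicate 1 or 2 or HR-negative LP replicate 1 (0.0501 to 0.101). In ML against HR-positive LP, Fen1 was called without HR-negative LP replicate 1 or 3 (0.0418 and 0.0281), with the replicate block (0.0412), DESeq2 (0.0166), the CPM filter (0.0406) and only the groups compared (0.0288). Anln was called without HR-negative LP replicate 1 (0.0270) and with only the groups compared (0.0140). The causes were not tested. Depth limits Ccnb1 and other genes near 1 CPM.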
